A study of Arabidopsis thaliana with 8 samples.

Results

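The genes described here are the loci that were abundant in wild-type Arabidopsis thaliana inflorescences and almost lost in janus-2. A locus was taken when its mean level in Col-0 was at least 100 CPM (the count of a gene scaled to 1000000 counts over all genes of that library) and its mean CPM in janus-2 was at most 1/64 of that in Col-0. Of the 28775 genes counted, 2091 reached 100 CPM in Col-0, and 123 of these (5.88%) met the second condition. The genes were thus chosen by their CPM in these same libraries, and their difference between genotypes is given as a description, without a test.

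The mRNA data came from 4 libraries, 2 of janus-2 and 2 of Col-0, the wild-type accession in which the allele was studied. janus-2 is a weak allele of JANUS (AT2G18510), a putative spliceosome subunit, that was made by CRISPR/Cas9 and carries a small deletion in an exon. The plants were grown in long days. RNA was extracted from inflorescences by the paper's methods, while its results name flowers. The libraries thus mix sepals, petals, stamens and carpels, and the stages of buds and flowers included are not stated. Plants of janus-2 are described as sterile. JANUS itself was at 18.2 and 19.4 CPM in janus-2, against 55.1 and 54.6 CPM in Col-0, a log2 change of -1.53 (SE 0.066, edgeR adjusted p = 4.26e-214), so its transcript was reduced in both libraries labelled janus and remained at 34.2% of the Col-0 level. Total counts on genes were 63578320 and 58966170 in janus-2, and 56360882 and 65578130 in Col-0. A floor of 3 counts corresponded to between 0.0457 and 0.0532 CPM in these libraries.

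A mature pollen grain of Arabidopsis holds a large vegetative cell, which later grows the pollen tube, and a pair of sperm cells inside it. The vegetative cell stores transcripts for tube growth, among them enzymes that remodel pectin, pumps and exchangers that set ion gradients, sugar transporters, small secreted peptides and receptor kinases. The anther's tapetum, the layer that nourishes the pollen, makes the enzymes of the outer wall and, later, the lipids and glycine-rich oleosins of the pollen coat. Many of the named genes below are known for these roles.

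Together the 123 genes summed to 172 and 177 CPM in janus-2, against 49305 and 49246 CPM in Col-0. They thus held 0.0172% and 0.0177% of all gene counts in the janus-2 libraries, and 4.93% and 4.92% in the Col-0 libraries. Of the 20 most abundant genes of Col-0, 8 were among them, as were 18 of the 100 most abundant. AT3G07850, the most abundant, ranked at place 8 of all genes in Col-0 and at place 15203 in janus-2. The plot of the abundant genes shows the group as a cloud apart: 9 abundant genes had a ratio between 1/64 and 1/32 and 11 a ratio between 1/32 and 1/16, while 1447 of the 2091 lay within 1.5-fold of their Col-0 level.

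**Figure D1:**
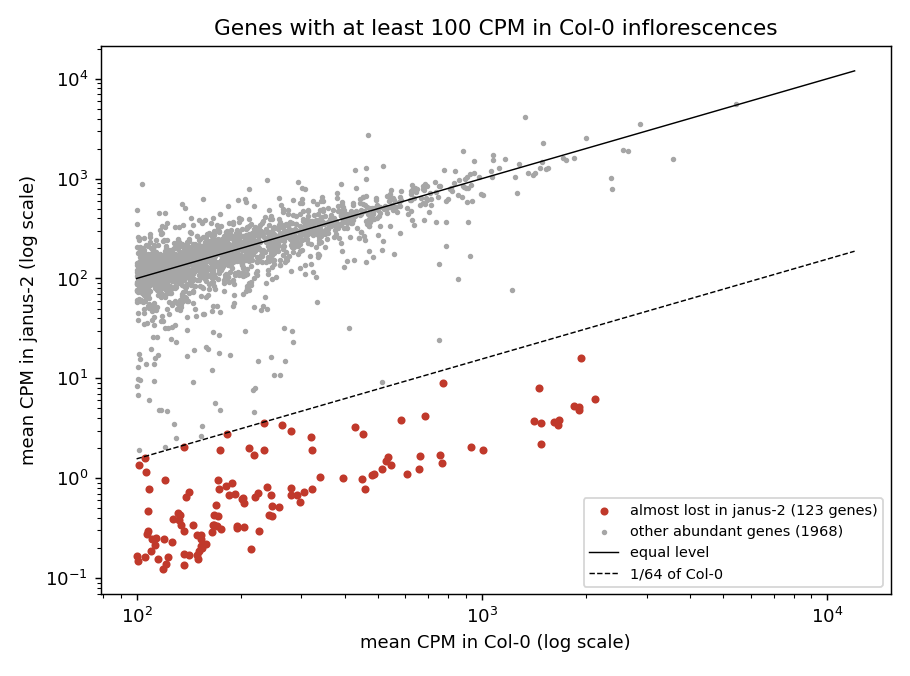
Mean CPM in janus-2 (vertical, log scale) against mean CPM in Col-0 (horizontal, log scale) for the 2091 genes of at least 100 CPM in Col-0, each point a gene and each value a mean of 2 libraries. The 123 lost genes (red) lie below the dashed line at 1/64, with janus-2 means between 0.122 and 16.1 CPM, and few other genes lie between them and the main cloud.

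What remained in janus-2 was low but was counted in every case. The residual level, the mean janus-2 CPM as a percentage of the mean Col-0 CPM, had a median of 0.242% and a middle range of 0.182% to 0.364%, with a lowest value of 0.0907% and a highest of 1.52%. These correspond to a median of 413-fold and a range of 65.8-fold to 1102-fold. It was under 0.2% in 40 genes, between 0.2% and 0.5% in 58, between 0.5% and 1% in 15 and at least 1% in 10. In CPM, 78 genes averaged under 1 in janus-2 and 45 at least 1. No gene was at 0 counts in both janus-2 libraries, and none was at or under the floor of 3 counts in both. AT4G03290 had 2 counts in 1 janus-2 library and 18 in the other, the single case at or under the floor in one library. Across the lost genes the residual level varied little with the Col-0 level. The Pearson correlation of log10 residual with log10 Col-0 CPM was 0.0536, and the Spearman correlation was 0.162. Whether all of the residual counts came from transcripts of janus-2 plants was not tested. A share that a gene is said to keep thus describes counts in the janus-2 libraries only.

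The residual level had a similar median in both mutant libraries, 0.233% in janus-2 replicate 1 and 0.253% in replicate 2. Over the 123 genes the log10 CPM of the janus-2 libraries correlated with r = 0.946 across genes, which share libraries and are not independent replicates. This r is of CPM, which also varies with how abundant each gene was in Col-0. In janus-2 replicate 1 58 genes were higher than in replicate 2, and 65 were lower. The janus-2 libraries differed more than 2-fold for 6 genes, none with more than 41 counts in a janus-2 library: AT4G03290, AT3G01230, AT5G12000, AT5G27870, AT5G48140 and CPK24.

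DAF1 (AT3G62230), named for an F-box protein activated by the sperm regulator DUO1, kept the smallest share. It had 0.236 and 0.153 CPM in janus-2, against 211 and 217 CPM in Col-0, a residual of 0.0907% (95% exact Poisson interval 0.0586% to 0.136%, from 24 janus-2 counts). Such intervals cover counting error only. The next lowest were AT5G12000 at 0.0995% (0.0591% to 0.162%), APPB1 at 0.102% (0.0573% to 0.169%), AT2G26850 at 0.103% (0.0622% to 0.161%) and ACA9 at 0.113% (0.0710% to 0.175%). These intervals overlap that of DAF1, so the counts do not settle the order of these genes. At the other end AT1G49490 had 4.09 and 3.04 CPM in janus-2, against 232 and 237 CPM in Col-0. Close to it were AT5G12960 at 1.51%, PI4K GAMMA 1 at 1.5%, TPX2 (a thioredoxin-dependent peroxidase) at 1.49% and SVL4 at 1.32%. Just beyond the ratio were the terpene synthase TPS10 at 1.71%, GRP14 at 1.74% and AT1G20130 at 1.79%. Just inside the level of 100 CPM were AT1G66210 and AT1G04470, at Col-0 means of 100.4 and 101 CPM, and just outside it AT4G33970, AT2G33420 and the cell wall invertase cwINV4, at Col-0 means of 99.8, 98.1 and 96.7 CPM, all with residuals under 1.5%.

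Enzymes that act on pectin, the gel of the growing tube's wall, made up a group of 6 named genes with 12.5% of the CPM of the lost genes in Col-0. The 65 genes without a name were not sorted by role. This and the later groups by role thus hold named genes only, and their shares could leave out unnamed genes of the same kind. Demethylation of pectin stiffens the wall, and VANGUARD1 (VGD1, AT2G47040) is a pectin methylesterase known for tube growth. VGD1 was at 4.33 and 5.36 CPM in janus-2, against 1907 and 1917 CPM in Col-0. Its neighbour and homologue VGDH1 was at 1.09 and 1.37 CPM in janus-2, against 664 and 647 CPM in Col-0. The third gene of this name, VGDH2, was at 2.06 and 2.09 CPM in janus-2, against 941 and 916 CPM in Col-0. All 3 VANGUARD genes of the annotation were therefore in the group. The pollen pectin methylesterase PPME1 had 1.27 and 1.54 CPM in janus-2, against 776 and 758 CPM in Col-0, and the polygalacturonase PGA4, which cuts the pectin chain, had 3.96 and 3.68 CPM in janus-2, against 1670 and 1681 CPM in Col-0. With the pectate lyase AT59 (AT1G14420) at 0.307% the residuals of these enzymes kept to a narrow band, with 0.184% for PPME1 the lowest.

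The SKU5-similar genes encode relatives of multicopper oxidases that are carried to the cell surface, and 4 of them were lost. sks13 was at 4.94 and 5.46 CPM in janus-2, against 1905 and 1905 CPM in Col-0. sks12 was at 1.13 and 1.07 CPM in janus-2, against 487 and 484 CPM in Col-0. These and sks11 kept between 0.226% and 0.273%. sks14, at 2.36 and 2.80 CPM in janus-2 and 322 and 320 CPM in Col-0, kept 0.804% (0.716% to 0.895%), although it stands directly beside sks12 on chromosome 1.

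Other genes of the wall were the beta-galactosidases BGAL11 and BGAL13 (AT2G16730), the xyloglucan endotransglucosylase XTH3, the endoglucanase-type gene GH9A4 and COBL10, which is known for tube guidance. BGAL11 had 1.68 and 1.76 CPM in janus-2, against 758 and 753 CPM in Col-0, and the residuals of the 5 lay between 0.212% and 0.281%. The arabinogalactan proteins, heavily glycosylated proteins of the cell surface, added 5 genes. AGP6 was at 1.26 and 1.71 CPM in janus-2, against 520 and 533 CPM in Col-0, and AGP11, which acts with AGP6 in pollen, was at 0.582 and 0.882 CPM in janus-2, against 303 and 308 CPM in Col-0. AGP23, AGP40 and FLA3, a fasciclin-like member known from microspore development, had residuals of 0.364%, 0.364% and 0.297%.

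Peptide genes had the lowest median residual of the groups, 0.183%, and ranged between 0.136% and 0.224%. That range lay within the ranges of the transport genes, the signalling genes, the named genes of no common class and the unnamed genes. The 5 peptide genes were RALFL4, RALFL8, RALFL9 and RALFL15, of the RALF family of secreted peptides that signal through receptor kinases, and LCR17, a cysteine-rich peptide gene. RALFL9 had 1.02 and 1.20 CPM in janus-2, against 607 and 608 CPM in Col-0. Its neighbour RALFL8 had 1.20 and 0.967 CPM in janus-2, against 485 and 479 CPM in Col-0. RALFL4, which keeps the tube wall intact as it grows, had 0.236 and 0.254 CPM in janus-2, against 121 and 119 CPM in Col-0. Per kilobase of gene span RALFL9 led the 123 genes, with 1103 CPM per kb in Col-0. Next came AT3G07850 with 1053, RALFL8 with 913 and GRP17 with 900. The peptide genes RALFL15, LCR17 and RALFL4 were at places 47, 51 and 74 of the 123. AT3G28770 was the lowest per kilobase, with 20.6 CPM per kb in Col-0.

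Transport across the plasma membrane was represented by the proton pumps HA6 and HA9, the calcium pump ACA9, the cation/proton exchanger CHX23 and the sugar transporters STP9 and STP11. HA9 was at 2.56 and 2.98 CPM in janus-2, against 451 and 453 CPM in Col-0, a residual of 0.614% (0.549% to 0.681%). HA6 was at 1.05 and 0.933 CPM in janus-2, against 395 and 397 CPM in Col-0, a residual of 0.251% (0.209% to 0.300%). ACA9, which is needed for tube growth, was at 0.220 and 0.119 CPM in janus-2, against 147 and 152 CPM in Col-0. The sugar transporters differed in what they kept, with 0.463% for STP9 and 0.155% for STP11.

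Signalling genes were the pollen receptor kinase PRK2A, the extensin-like receptor kinase PERK4, LIP2 (AT3G02810, a kinase known for tube guidance), the calcium-dependent kinase CPK24, PI4K GAMMA 1 of the phosphoinositide pathway, and GDI, a gene of Rab GTPase recycling. Their residuals spread over a wide range, 0.134% to 1.5%. PRK2A was at 0.409 and 0.424 CPM in janus-2, against 242 and 252 CPM in Col-0, and PERK4 was at 1.02 and 1.27 CPM in janus-2, against 106 and 107 CPM in Col-0. The kinase CPK24 was counted 8 and 17 times in janus-2.

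Pollen coat genes had the highest median residual of the groups, 0.799%. Their range, 0.176% to 1.17%, lay within the ranges of the signalling genes, the named genes of no common class and the unnamed genes. The pollen coat group held the oleosin-type glycine-rich proteins GRP16, GRP17, GRP19 and GRP20 and the extracellular lipases EXL4 and EXL6. These 6 genes made up 19.8% of what the 123 genes summed to in janus-2, and 8.31% of the sum in Col-0. GRP17, a coat oleosin known for pollen hydration, was at 15.7 and 16.4 CPM in janus-2, the highest level that any of the 123 genes kept, against 1946 and 1914 CPM in Col-0. GRP19 was at 8.43 and 9.72 CPM in janus-2, against 772 and 774 CPM in Col-0, and EXL4 was at 3.90 and 3.82 CPM in janus-2, against 580 and 588 CPM in Col-0. GRP16, which lies between GRP17 and GRP19, went with the other groups: it had 0.346 and 0.237 CPM in janus-2, against 165 and 167 CPM in Col-0, and a residual of 0.176% (0.124% to 0.245%), below the intervals of GRP17 (0.796% to 0.870%) and GRP20 (0.690% to 0.841%).

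**Figure D2:**
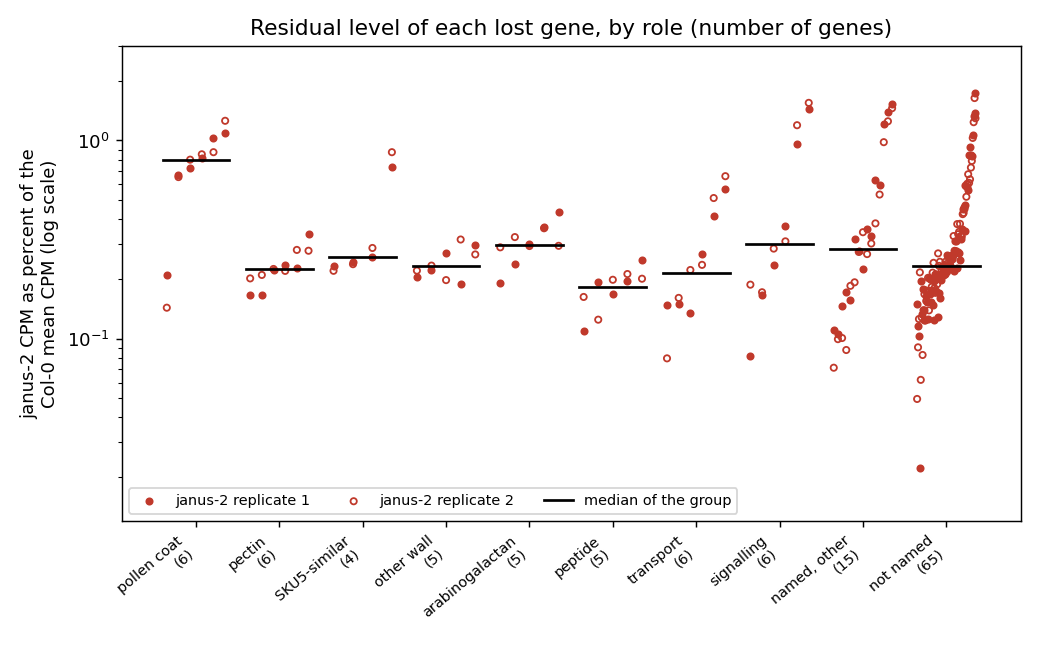
Residual level of each of the 123 genes, as CPM of a janus-2 library in percent of the mean Col-0 CPM (log scale), by role, with replicate 1 filled, replicate 2 open and a bar at the median of the group. The pollen coat median, 0.799%, lies above those of the other groups, which run from 0.183% for peptides to 0.300% for signalling, and GRP16 is the low point of its group.

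A further 15 named genes belong to no common class. PAB3 encodes a poly(A)-binding protein of reproductive tissue, and was at 0.739 and 0.678 CPM in janus-2, against 223 and 227 CPM in Col-0. BCP1, known as a protein that pollen needs, was at 0.724 and 0.543 CPM in janus-2, against 201 and 206 CPM in Col-0. The actin-binding LIM protein gene PLIM2a kept 0.506%, the myo-inositol oxygenase gene MIOX4 1.09%, the carbonic anhydrase gene ACA3 0.275% and the lipid transfer protein gene LTPG4 (AT4G08670) 0.565%. The group as a whole spanned 0.0907% to 1.49%.

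Names were given by RefSeq for 54 of the 123 genes as their symbol and for 4 more as a synonym. The 65 others, here given by locus alone, held 54.3% of the CPM of the lost genes in Col-0, and 8 of the 12 most abundant were among them. AT3G07850 was at 6.57 and 5.85 CPM in janus-2, against 2124 and 2115 CPM in Col-0. AT3G14040 was at 4.97 and 5.72 CPM in janus-2, against 1856 and 1837 CPM in Col-0. All 11 unnamed genes among the 20 most abundant were at 8.59 CPM or less in each janus-2 library. AT3G28980 was at 3.38 and 3.78 CPM in janus-2, against 1482 and 1474 CPM in Col-0. AT5G07410 was at 3.76 and 3.65 CPM in janus-2, against 1437 and 1401 CPM in Col-0. AT3G01270, with 1.84 and 2.59 CPM in janus-2 and 1490 and 1470 CPM in Col-0, had the lowest residual of the 11 unnamed genes among the 20 most abundant, 0.150%. AT5G19580 kept more, with 8.59 and 7.60 CPM in janus-2, against 1461 and 1462 CPM in Col-0, and a residual of 0.554%. The unnamed genes as a group had a median residual of 0.232% and a range of 0.0995% to 1.52%.

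The lost genes were in part neighbours. All 123 are annotated as protein-coding, with 29, 18, 35, 12 and 29 on chromosomes 1 to 5. Counting genes as neighbours when at most 5 places apart in the annotation's order of protein-coding genes, 35 of them fell into 12 runs, of which 5 held 3 genes or more, and 13 pairs were directly adjacent. The same count was not made for other sets of genes, so it is a description only. The largest run held 8 genes, from AT3G28750 to AT3G28840 on chromosome 3, and summed to 16.6 CPM in janus-2, against 5133 CPM in Col-0, or 10.4% of the CPM of the lost genes. Within it AT3G28830 was at 3.30 and 3.48 CPM in janus-2, against 1655 and 1673 CPM in Col-0, and AT3G28790 was at 3.41 and 3.93 CPM in janus-2, against 1600 and 1625 CPM in Col-0. The residuals inside the run ranged from 0.139% for AT3G28810 to 1.28% for AT3G28840 at its end. One gene between them, AT3G28760, was at 12.6 and 12.6 CPM in janus-2, against 22.2 and 22.3 CPM in Col-0 (log2 change -0.81), so it was far less reduced than its neighbours.

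On chromosome 5 GRP17, GRP16, GRP19 and GRP20 formed a run, next to GRP14 and GRP18 of the same name. One further annotated gene, AT5G07545, lies among them and was not analysed here. GRP14 was at 2.38 and 2.97 CPM in janus-2, against 155 and 153 CPM in Col-0, and GRP18 was at 1.67 and 1.63 CPM in janus-2, against 79.5 and 82.7 CPM in Col-0. Both fell in janus-2 by the edgeR test, by 5.84 and 5.60 on the log2 scale. GRP14 missed the group through the ratio, and GRP18 through the ratio and the level. Runs also joined VGDH1, VGD1 and AT2G47050 on chromosome 2, sks14 with sks12, sks11 with sks13, RALFL8 with RALFL9, EXL4 with EXL6, AT5G07410 with AT5G07430, and AT3G07820 with AT3G07850. The genes that flank the VANGUARD run, AT2G47020 and PTI1-4, stayed under the 1.5-fold threshold, with log2 changes of 0.33 and 0.27 (edgeR adjusted p = 0.0038 and 4.06e-08). Over all runs 10 genes between the lost genes were tested, and 6 were lower and 1 was higher in janus-2, where 27.2% of all 22990 genes tested were lower and 18.5% were higher (edgeR, at an adjusted p no higher than 0.05 with at least a 1.5-fold difference). AT3G62220, between VGDH2 and DAF1, was the one that rose, to 32.4 and 31.8 CPM in janus-2, against 14.8 and 13.7 CPM in Col-0.

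**Figure D3:**
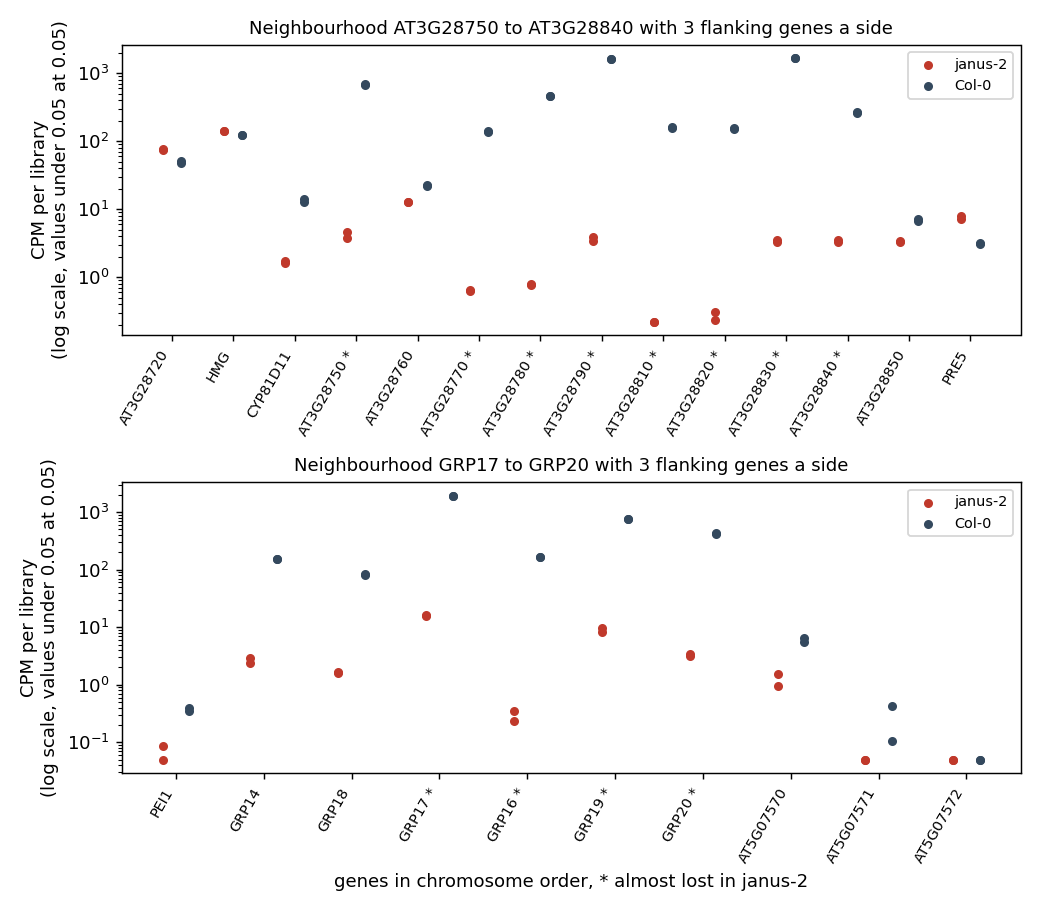
CPM of each library (log scale, values under 0.05 drawn at 0.05) for genes in chromosome order around the largest run on chromosome 3 (top) and the GRP run on chromosome 5 (bottom), with janus-2 left of Col-0 at each gene and an asterisk for the lost genes. AT3G28760 lies inside the top run at 12.6 CPM in janus-2 and 22.2 and 22.3 CPM in Col-0, while the asterisked genes are at 16.4 CPM or less in janus-2.

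Other genes of the same families are described next. The families were taken because they hold a lost gene and were set after the values were seen, and every abundant gene at 1/64 or less had been taken out of them, so the counts are a description. Grouping by symbol gave 17 families with 34 of the lost genes, and 239 relatives outside the group were tested. Of these 112 (46.9%) were lower in janus-2 and 66 (27.6%) were higher, against 27.2% and 18.5% of all genes tested, and 61 missed a threshold. Among the 38 relatives that were themselves at 100 CPM or more in Col-0, 14 were lower and 12 were higher, where of the 1968 abundant genes outside the group 16% were lower and 10.7% were higher. In 13 of the 16 families with a tested relative, at least 1 relative rose.

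Of the 9 tested proton pump relatives 3 rose, 3 fell and 3 missed a threshold. HA1, a main pump of vegetative tissue, was at 1006 and 988 CPM in janus-2, against 457 and 464 CPM in Col-0, a log2 change of 1.13 (SE 0.019). HA2 rose by 2.0 (SE 0.025) and HA3 by 1.28 (SE 0.027) on the log2 scale. HA8, known from pollen like HA6 and HA9, fell by 3.68 (SE 0.035), with 31.7 and 31.9 CPM in janus-2 and 409 and 414 CPM in Col-0. It thus kept 7.73% where HA6 kept 0.251%. Among SKU5-similar genes 5 of 9 relatives rose and 4 fell. sks5 was at 408 and 399 CPM in janus-2, against 144 and 144 CPM in Col-0 (log2 change 1.51, SE 0.027), and sks18 was at 2.69 and 2.75 CPM in janus-2, against 66.5 and 62.7 CPM in Col-0.

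The sugar transporter STP6 had 0.0629 and 0.0170 CPM in janus-2, against 60.9 and 61.0 CPM in Col-0, and was left out of the group by its Col-0 level alone. STP1 was at 104 and 105 CPM in janus-2, against 90.7 and 91.5 CPM in Col-0, and did not reach the 1.5-fold threshold. Of the 8 tested relatives of this family 6 fell and none rose. The calcium pump ACA10 was at 193 and 184 CPM in janus-2, against 78.5 and 77.7 CPM in Col-0, a rise of 1.29 (SE 0.038) on the log2 scale.

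Of the 23 tested arabinogalactan relatives 11 rose and 6 fell: AGP15 was at 576 and 595 CPM in janus-2, against 210 and 206 CPM in Col-0, while AGP41 was at 2.33 and 2.44 CPM in janus-2, against 95.1 and 97.3 CPM in Col-0. Among RALF-like genes 16 of 22 relatives fell and 2 rose. RALFL19, which acts with RALFL4 in the tube, was at 0.142 and 0.102 CPM in janus-2, against 74.6 and 72.4 CPM in Col-0. RALFL33 was at 32.7 and 31.7 CPM in janus-2, against 13.8 and 12.1 CPM in Col-0. In the CHX family 18 of 22 relatives fell, and in the XTH family 18 of 26 rose. All 5 other pollen receptor kinase genes fell. Near-identical members of a family can share reads, and how such reads were counted is not given in the sources used here, so part of the residual counts in tandem pairs could not be assigned with certainty.

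**Figure D4:**
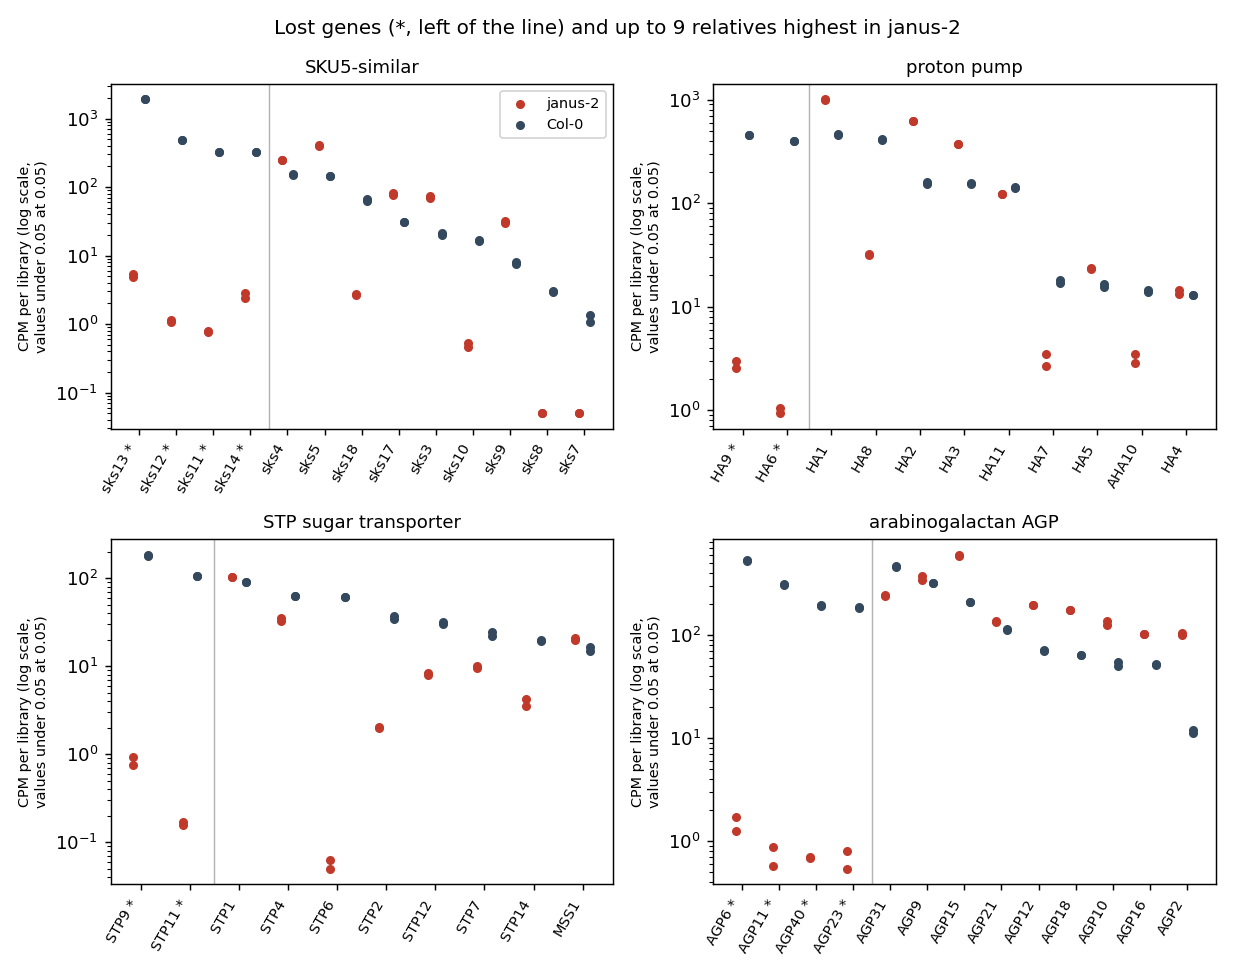
CPM of each library (log scale, values under 0.05 drawn at 0.05) for the lost genes (asterisk, left of the line) and up to 9 relatives highest in janus-2 of 4 families, with janus-2 left of Col-0 at each gene. HA1, HA2 and HA3, sks5 and AGP15 lie higher in janus-2, and HA8 and sks18 lower, beside the lost genes of their families.

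Marker genes of cell types were counted in the same fit, with the 15 lost genes that belong to a list kept apart. The lists were chosen with earlier results of these data known, so their counts are a description and no independent support. Of the list for the vegetative cell and tube of pollen 12 genes were among the lost ones. The other 17 tested were all lower in janus-2, where 27.2% of all genes tested were lower and 18.5% were higher. The median log2 change of these 17 was -7.81, against a median of -0.019 over all genes tested. Without the lost genes the list summed to 52.5 and 52.0 CPM in janus-2, against 1243 and 1250 CPM in Col-0, and AT4G39110 was at 0 in all 4 libraries. The receptor kinase gene ANX2 was at 0.0944 and 0.119 CPM in janus-2, against 73.2 and 74.2 CPM in Col-0. ANX1, its partner in the tube, was at 10.6 and 10.6 CPM in janus-2, against 31.8 and 32.6 CPM in Col-0, and with the channel gene CNGC18 was the least reduced of the list.

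The sperm cell list had no lost gene, as none of it reached 100 CPM. All 6 of its tested genes were lower, where 27.2% of all genes tested were lower. MGH3, a histone of the male gamete, was at 0 and 0 CPM in janus-2, against 8.78 and 9.53 CPM in Col-0. By a floor of 3 counts per library MGH3 was at least 187-fold lower. GEX2 was at 0 in all 4 libraries. The list summed to 3.62 and 3.70 CPM in janus-2, against 37.2 and 36.6 CPM in Col-0. Of 9 regulators of pollen maturation 8 were lower, beside the same 27.2% of all genes tested, with a median log2 change of -1.74. The MADS-box genes AGL66 and AGL104 were at 0.0157 and 0.0509 CPM and at 0.0629 and 0.0170 CPM in janus-2, against 9.65 and 10.3 CPM and 12.6 and 12.1 CPM in Col-0. AGL30, AGL65 and WRKY2 kept between 29.7% and 49.4%, and BZIP34, at 67.4%, stayed under the 1.5-fold threshold.

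The tapetum and pollen wall list held GRP17, EXL4 and EXL6 of the lost genes. Its other 17 genes were all lower in janus-2, where 27.2% of all genes tested were lower. They had a median log2 change of -3.20 and a range of -5.51 to -2.10. These 17 genes summed to 157 and 158 CPM in janus-2, against 1232 and 1220 CPM in Col-0. MS2, an enzyme of the outer wall, was at 21.2 and 19.8 CPM in janus-2, against 161 and 158 CPM in Col-0, so that it kept 12.9% where GRP17 kept 0.833%. Only DYT1, at 0 and 0.0170 CPM in janus-2, was at or under the floor in both janus-2 libraries. DYT1 was also low in Col-0, at 0.444 and 0.488 CPM, so its log2 change of -5.51 (SE 1.60), the low end of the range, is uncertain.

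In the lists for other floral parts the counts are small and are read beside the 27.2% of all tested genes that were lower and the 18.5% that were higher. Of 5 genes of early anther specification 2 were lower, SPL and EMS1, and TPD1 was higher, at 14.6 and 14.5 CPM in janus-2, against 5.68 and 6.88 CPM in Col-0. BAM1 and BAM2 stayed under the 1.5-fold threshold. Of 9 ovule and carpel genes 3 were lower, SHP2, INO and CRC, and SPT was higher, while STK, SHP1, BEL1, ANT and HEC1 stayed under the 1.5-fold threshold. Of the floral identity genes AP3 was at 88.6 and 87.2 CPM in janus-2, against 160 and 163 CPM in Col-0, and PI was at 74.9 and 74.2 CPM in janus-2, against 213 and 203 CPM in Col-0. AG and SEP3 stayed under the 1.5-fold threshold, as did all 6 leaf photosynthesis genes, which summed to 13652 and 13670 CPM in janus-2, against 13235 and 13016 CPM in Col-0. In such mixed tissue fewer cells of a type and less RNA per cell cannot be told apart, and the part of either in the loss of the 123 genes was not tested.

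**Figure D5:**
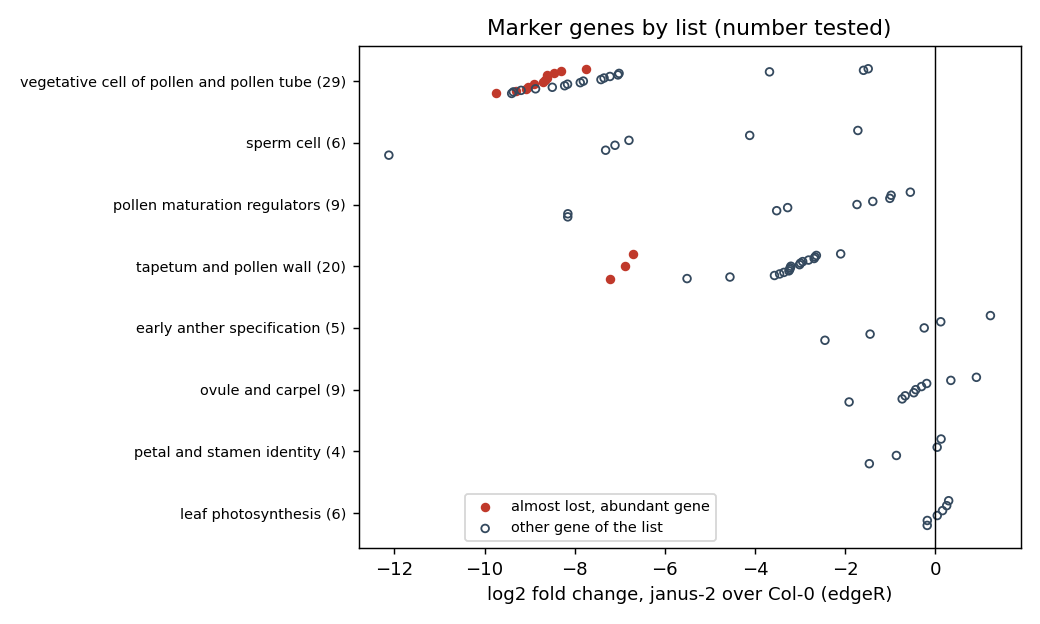
Log2 fold change of janus-2 over Col-0 (edgeR) for each tested gene of 8 marker lists, with the lost genes filled and the other genes of the list open. The other genes of the vegetative cell list centre at -7.81 and those of the tapetum list at -3.20, and the 6 leaf genes lie between -0.18 and 0.30.

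The loss was not limited to abundant genes. Of 12379 genes between 10 and 100 CPM in Col-0, 341 (2.75%) were at 1/64 or less in janus-2, and 113 of these were at or under the floor of 3 counts in both janus-2 libraries, 12 of them at 0. Of 5854 genes between 1 and 10 CPM, 326 (5.57%) met the same ratio. For the least abundant of these, 1/64 of the Col-0 level lies under the floor of 3 counts, so this share is less certain.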

How the data were processed

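The authors deposited raw counts per gene for each mRNA library. The submitters' processing notes name Bowtie, HTSeq and TAIR10, while versions, annotation release and strand setting are not given in the sources used here. Rows naming no gene were left out: those outside genes made up 1.11% to 1.13% of all counts recorded, and ambiguous ones 2.15% to 2.34%. CPM was computed on the remaining column sum. The 4 small RNA libraries were not used.

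Counts were compared with edgeR 4.0.16 (filterByExpr, TMM, glmQLFit, glmQLFTest, Benjamini-Hochberg over all tested genes, adjusted p of at most 0.05 and fold of at least 1.5) in R 4.3.3, with standard errors (SE) taken from DESeq2 1.42.0. The procedure was tested on simulated counts. The replicates within a genotype differed beyond sampling noise (chi-square per degree of freedom 2.51 in janus-2 and 2.34 in Col-0). Their spread was still small, with a common coefficient of variation of 2.26% in edgeR. The methods call the libraries biological replicates and do not say whether they were separate plants or pools. The p-values thus measure the small spread between these libraries, which may not be the spread between plants.

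The genes and lists were chosen with earlier results of these data known. Roles and families by symbol were set after the values were seen, because the word patterns first planned matched unrelated names, and counts by those patterns are not given. Named genes are JANUS, the 20 most abundant lost genes, the 5 lowest and 5 highest residuals, the 3 loci on each side of a threshold, the most abundant of each family with relatives high in janus-2, list genes and members of runs; others were named as examples after their values were seen. Names, gene order and gene spans come from RefSeq TAIR10.1, which matched 28009 of 28775 loci and all 123 genes.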

Additional observations from a re-analysis of the deposited data

How the results depend on the processing

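The rule gave 122 genes with TMM-scaled CPM, 122 with DESeq2's size factors, 124 with upper-quartile scaling, 132 at a ratio of 1/32, 107 at the stricter ratio tried, and between 122 and 124 without each replicate in turn. A Col-0 level of 50 CPM moved the number to 218 and one of 200 CPM to 62. At a fold of at least 2, 2194 genes were higher in janus-2 in place of 4258, and 1 gene was lower in each of the ovule and carpel list (3 at 1.5-fold) and the petal and stamen identity list (2 at 1.5-fold). The counts of relatives, whose alternatives were chosen after seeing the data, were between 97 and 113 lower and between 48 and 68 higher. Same-numbered libraries did not deviate together (correlation of -0.010 over 14399 genes), and in the fit with a replicate block 112 relatives were lower and 66 higher, as without it. The planned search of promoters for motifs was not run, since no promoter sequences were used here. With 1 library left out of a genotype, the lone library is assumed to vary like the other genotype's. Levels near 0.05 CPM rest on about 3 counts and give no order between genes.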
